A study of Mus musculus with 12 samples.

Results

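The genes described here are 2 anthrax toxin receptor genes, Antxr1 and Antxr2, and 5 genes of the hyaluronan matrix: Ptx3, Tnfaip6, Has1, Has2 and Cd44. Every probe set whose only platform gene symbol was one of these 7 was taken, which gave 10 of the 22626 probe sets other than controls and 7 of 12393 named genes. Antxr2 and Ptx3 were chosen by their TCDD difference in these data, which had passed a test, and the other 5 because they stand beside them in receptor family or matrix. All TCDD differences of the members are therefore given as a description without a p-value, and their tests are kept to changes with time.

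The cells were ET, a mouse line from fetal cortical thymic epithelium, grown near confluence and harvested with TRIzol. TCDD, a dioxin that activates the aryl hydrocarbon receptor (AhR), was given at 5 nM for 2, 4 or 6 h, and the solvent 1,4-dioxane at 0.05% by volume for the same times. Each of the 6 groups held 2 Affymetrix arrays, 12 in all. The arrays of a group are described as biological duplicates of 1 line without saying which step was repeated, so the spread and p-values below cover only these arrays, and part of that spread may be technical. The second TCDD array of 4 h has the solvent in its treatment field. Both solvent arrays of 6 h have 4 h in their description and treatment protocol. Groups follow the titles, so all 6 h differences and all changes from 2 to 6 h rest on the titles of those arrays.

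Hyaluronan is a long sugar polymer that hyaluronan synthases (Has1, Has2) make at the plasma membrane. TSG-6, the product of Tnfaip6, moves protein chains onto hyaluronan, and the pentraxin Ptx3 binds these complexes and links the strands, while Cd44 is the main cell surface receptor for hyaluronan. Antxr1 and Antxr2 encode membrane proteins that bind collagens and laminin and serve as the entry receptors of anthrax toxin. AhR is a transcription factor that, once bound by TCDD, pairs with Arnt and binds DNA with the core GCGTG, for example upstream of Cyp1a1.

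The promoter windows of the 2 genes that differed most with TCDD are printed as context for the values that follow. RefSeq on GRCm38.p6 gave 5 of the 7 members a window of 250 bases ending just before the transcription start its table uses; for Has1 and Cd44 that start lies within the annotated gene, so their windows overlap it. Antxr2 lies on the minus strand at chr5:97884688-98031017 with its window at chr5:98031018-98031267, and Ptx3 on the plus strand at chr3:66219887-66225806 with its window at chr3:66219637-66219886. Capitals mark matches to the searched motifs, 5′ to 3′ on the gene's strand.
Antxr2: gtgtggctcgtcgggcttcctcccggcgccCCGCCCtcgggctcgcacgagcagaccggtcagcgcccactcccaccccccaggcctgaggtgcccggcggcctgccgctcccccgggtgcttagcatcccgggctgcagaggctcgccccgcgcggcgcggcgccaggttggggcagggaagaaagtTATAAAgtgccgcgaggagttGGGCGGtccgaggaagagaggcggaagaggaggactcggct
Ptx3: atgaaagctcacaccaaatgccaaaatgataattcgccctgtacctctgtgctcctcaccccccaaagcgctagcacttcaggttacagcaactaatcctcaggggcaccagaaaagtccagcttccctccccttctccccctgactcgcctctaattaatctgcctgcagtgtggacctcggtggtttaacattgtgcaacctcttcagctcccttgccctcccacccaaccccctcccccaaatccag
The search covered both strands, with overlapping matches allowed. The letters searched were GCGTG for the AhR core and TGANTCA for AP-1, with GGGCGG for the GC box, while the TATA box was searched as TATAAA and NF-kB by its consensus. In Antxr2 the capitals are GC boxes at -220, on the opposite strand, and at -41, and a TATA box at -62; the Ptx3 window held none of the motifs. The AhR core was not in any of the 5 member windows (Antxr2, Ptx3, Tnfaip6, Has1, Cd44), which says only that these letters are not in them. It occurred once in the windows of the AhR targets Cyp1a1 (-54) and Tiparp (-170), and 28.2% of 32851 RefSeq windows held it. The other shares were 6.75% for AP-1, 32.7% for the GC box, 12.4% for the TATA box and 7.25% for the NF-kB consensus. Tnfaip6 had an AP-1 match at -142 and a GC box at -171 on the opposite strand.

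Values are RMA log2 levels per probe set with 1 decimal, so a difference of 1 is a factor of 2. Levels of different probe sets are not set against each other, except in the filter and in the level percentiles of marker lists. The arrays measured RNA of whole cultures, so fewer cells of a type and less RNA per cell cannot be told apart. A probe set was tested when its mean over the arrays reached the 30th percentile, log2 3.98; all 10 member probe sets did, and 15844 did in all. Of markers on the array, 5 of 10 for cortical thymic epithelium (Krt8, Foxn1, Dll4, Ccl25, Ctsl) lay above that level, while Prss16, Ly75, Krt18, Epcam and Pax1 lay below it. All 14 fibroblast and mesenchyme markers lay above it, 4 of 8 medullary ones and 3 of 6 haematopoietic ones (not Ptprc). As a percentile, the filter passes 15844 of 22626 probe sets whatever the cells express, so lying above it does not by itself show expression. The median level percentile was 33.6 for cortical, 31.1 for medullary and 29.7 for haematopoietic markers, against 96.2 for mesenchymal ones. These ranks compare unlike probe sets and are a rough description. The median TCDD difference of these 4 lists was 0.05 for cortical, -0.08 for mesenchymal, 0.01 for medullary and 0.07 for haematopoietic markers.

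Arrays also fell into sets that the labels do not name. Clustering all probe sets split off 5 arrays (the second TCDD array of 2 h, the first of 4 h, the second of 6 h, and the second solvent arrays of 2 h and 6 h) from the largest cluster of 7 (3 TCDD, 4 solvent). The metallothionein gene Mt1 (1422557_s_at) ran from 9.6 to 10.8 on the smaller set and from 7.1 to 7.4 on the larger. TCDD differences are therefore also given within sets, which was possible in the larger set at each time and in the smaller set at 2 and 6 h. Cyp1a1, which AhR induces, read 11.1 and 10.2 on the 4 h TCDD arrays, the second being the array with the conflicting label, against 4.3 and 4.0 on the 4 h solvent arrays.

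Antxr2 was higher on all 6 TCDD arrays than on any solvent array. The TCDD arrays read 7.1 and 7.0 at 2 h, 7.2 and 7.6 at 4 h, and 7.2 and 7.9 at 6 h. Solvent arrays read 5.6 and 5.8 at 2 h, 6.1 and 6.1 at 4 h, and 6.5 and 6.7 at 6 h. The lowest TCDD array (7.0) thus stood above the highest solvent array (6.7), and the groups did not overlap at any time. The TCDD difference was 1.35 ± 0.24 (SE of the fit, here and below, n = 2 arrays a group) at 2 h, 1.30 ± 0.24 at 4 h and 0.95 ± 0.24 at 6 h, or 2.55-fold, 2.46-fold and 1.93-fold. Averaged over the times it was 1.20 ± 0.14, 2.3-fold. Within array sets the TCDD difference was 1.50, 1.50 and 0.70 at 2, 4 and 6 h in the larger set. In the smaller set it was 1.20 and 1.20 at 2 and 6 h. Because no solvent array reached a TCDD array, these values could not fall below 0, so only their sizes are described.

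The 6 group means of Antxr2 put TCDD at 7.05, 7.40 and 7.55 at 2, 4 and 6 h, above solvent at 5.70, 6.10 and 6.60. Neighbours in that order did not overlap in their arrays, except TCDD at 4 h and 6 h. Within both treatments the level at 6 h was above that at 2 h on every array, by 0.50 with TCDD and by 0.90 with solvent. Averaged over treatments, the 6 h minus 2 h difference of 0.70 ± 0.17 did not pass the test (limma adjusted p = 0.433), nor did 4 h minus 2 h, 0.37 ± 0.17 (adjusted p = 0.99). The change of the TCDD difference over time did not pass either (limma's F-test, adjusted p = 1).

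Antxr1, the paralogue of Antxr2, showed no such separation. Its probe set 1451446_at read 7.2 and 6.7, 6.0 and 7.2, and 7.3 and 7.0 on the TCDD arrays of 2, 4 and 6 h, against 7.2 and 7.0, 6.9 and 6.9, and 7.4 and 6.9 on the solvent arrays. The first TCDD array of 4 h was the lowest of the 12, and the groups overlapped at every time. The average difference was -0.15 ± 0.20, and on the smaller array set this probe set averaged 6.72, against 7.16 on the larger. The other probe set, 1431995_at, read 4.9 to 5.5 on TCDD arrays and 5.1 to 5.3 on solvent arrays, with an average difference of -0.05 ± 0.12. At 6 h its TCDD arrays (5.0 and 5.0) were below its solvent arrays (5.1 and 5.2) without overlap. The 2 probe sets of Antxr1 moved against each other: the array that was lowest for 1451446_at was highest for 1431995_at, so they do not give the gene 1 pattern over these arrays. Antxr1 lies at chr6:87133853-87335809.

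**Figure D1:**
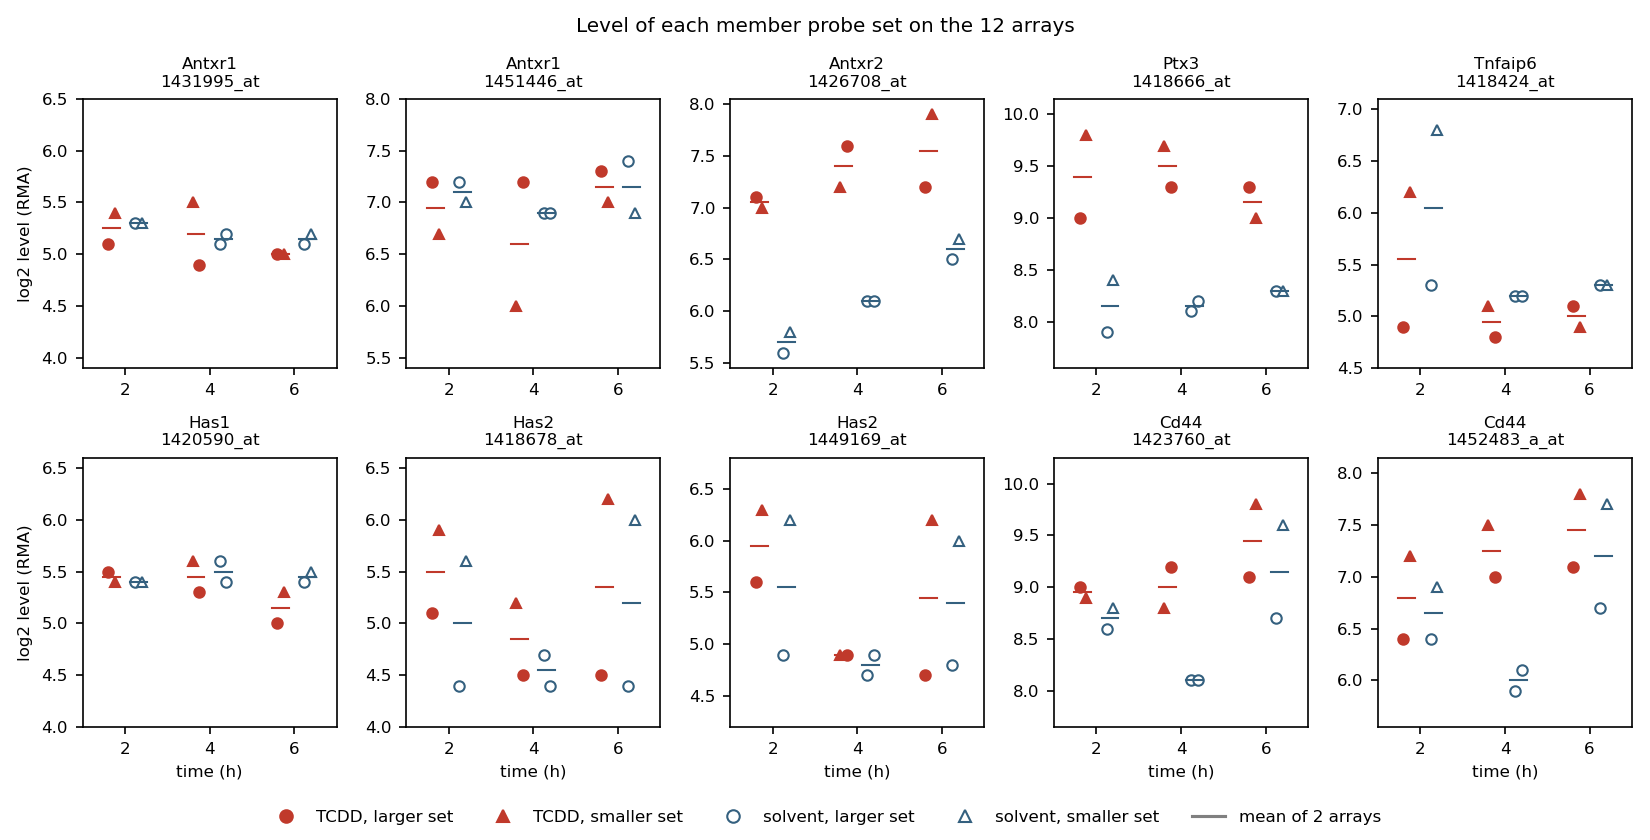
Log2 level (y axis, RMA) of each of the 10 member probe sets at 2, 4 and 6 h (x axis), TCDD in filled red to the left of solvent in open blue, 1 symbol an array; circles are the larger array set, triangles the smaller, and short lines the mean of 2 arrays. For Antxr2 every TCDD array (7.0 to 7.9) lies above every solvent array (5.6 to 6.7), and for Ptx3 likewise (9.0 to 9.8 against 7.9 to 8.4).

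Ptx3 also stood apart on every TCDD array. The TCDD arrays read 9.0 and 9.8 at 2 h, 9.7 and 9.3 at 4 h, and 9.3 and 9.0 at 6 h. Solvent arrays read 7.9 and 8.4, 8.1 and 8.2, and 8.3 and 8.3 at the same times. The lowest TCDD array (9.0) was above the highest solvent array (8.4). The TCDD difference was 1.25 ± 0.28 at 2 h (2.38-fold), 1.35 ± 0.28 at 4 h (2.55-fold) and 0.85 ± 0.28 at 6 h (1.8-fold), with an average of 1.15 ± 0.16, 2.22-fold. Within array sets it was 1.10, 1.15 and 1.00 at 2, 4 and 6 h in the larger set. In the smaller set it was 1.40 and 0.70 at 2 and 6 h. As for Antxr2, these values could not fall below 0, since the treatments did not overlap. Without the 4 h TCDD array whose label conflicts, the 4 h and average differences were 1.55 and 1.22 for Ptx3 and 1.10 and 1.13 for Antxr2. Without the 6 h arrays, a choice made after seeing the data, the average over 2 and 4 h was 1.30 ± 0.22 for Ptx3 and 1.33 ± 0.13 for Antxr2.

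Ptx3 had no ordered level with time: the TCDD arrays of the 3 times overlapped, and the 2 h solvent arrays spanned those of 4 and 6 h. The 6 h minus 2 h difference over both treatments was -0.05 ± 0.20 (limma adjusted p = 0.927), and the change of the TCDD difference with time did not pass (limma's F-test, adjusted p = 1). For none of the 10 member probe sets, and for 0 of all 15844, did limma's F-test find a TCDD difference that changed with time. An unadjusted p under 0.05 was reached by 105 (0.663%). That is fewer than the share of 0.05 that evenly spread p-values would give, so nothing is read from the 105. Not passing this test is likewise weak evidence that a difference stayed the same.

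Antxr2 and Ptx3 were the 2 member probe sets, both higher, among the 15 (0.0947%) that passed limma's adjusted p of 0.05 on the average TCDD difference; 14 (0.0884%) of these were higher. That result chose them, and nothing is read from the count. No member passed at a single time, where 3 probe sets (0.0189%) passed at 2 h, 2 (0.0126%) at 4 h and 1 (0.00631%) at 6 h. The choice was not stable: both genes lost the call in some fits that left out arrays, and Ptx3 also with the replicate number as a block over all times. Their average differences stayed between 1.08 and 1.33 for Antxr2 and between 1.02 and 1.30 for Ptx3 over the alternatives. TCDD and solvent arrays did not overlap, with TCDD higher, for 3 member probe sets at 2 h, 4 at 4 h and 2 at 6 h, against 7.16%, 7.95% and 9.69% of all tested probe sets. Antxr2 and Ptx3, chosen by their TCDD difference, are in each of these counts, so the counts cannot be read against the shares. The rest were probe sets of Cd44, 1423760_at at 2 and 4 h and 1452483_a_at at 4 h. TCDD was lower without overlap for 0, 1 and 3 member probe sets at these times, against 6.68%, 11.1% and 9.66%. Only Antxr2 and Ptx3 among the members were higher without overlap at all 3 times, as were 0.467% of all tested probe sets. As their TCDD difference chose them, nothing is read from this either.

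**Figure D2:**
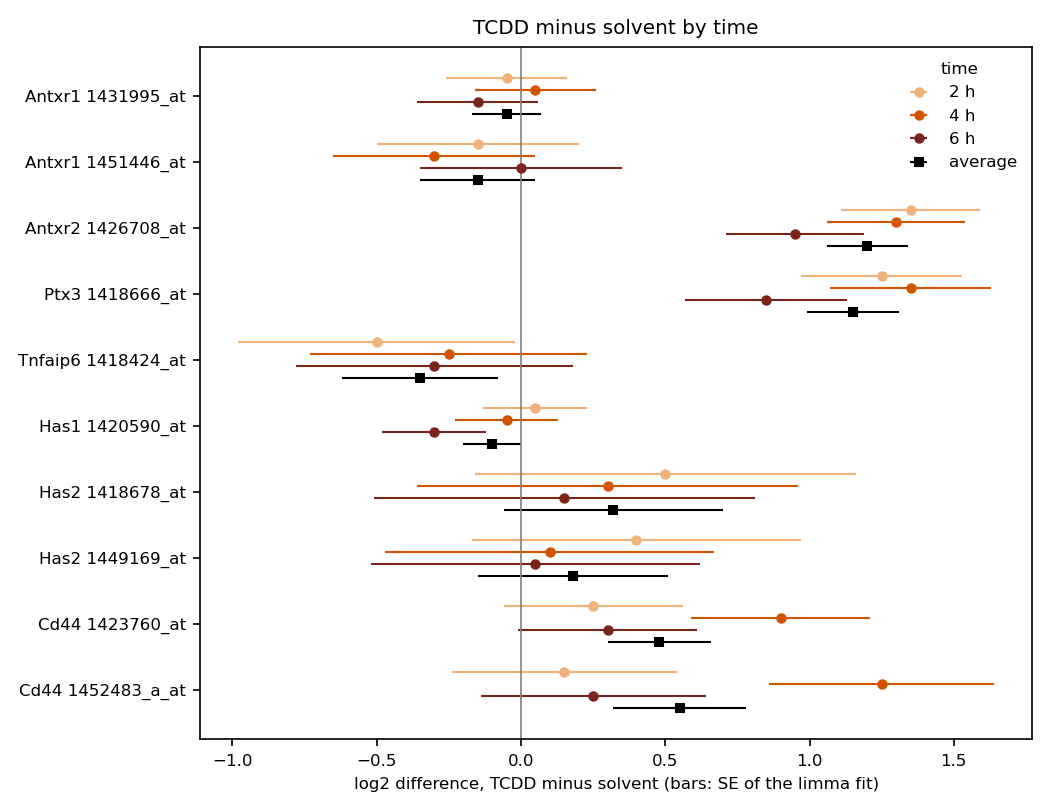
Log2 difference of TCDD minus solvent (x axis) for each member probe set (y axis), in circles at 2, 4 and 6 h and as a black square for their average; bars are SE of the limma fit. Antxr2 (average 1.20) and Ptx3 (1.15) lie furthest to the right, the 2 Cd44 probe sets reach 0.90 and 1.25 at 4 h, and Tnfaip6 averages -0.35.

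Tnfaip6, which encodes the hyaluronan-binding partner of Ptx3, did not share that pattern. On TCDD arrays it read 4.9 and 6.2 at 2 h, 5.1 and 4.8 at 4 h, and 5.1 and 4.9 at 6 h; on solvent arrays it read 5.3 and 6.8, 5.2 and 5.2, and 5.3 and 5.3. The second arrays of 2 h, both in the smaller set, were the highest for each treatment, and TCDD and solvent overlapped at 2 h but not at 4 and 6 h, where TCDD was lower. The difference was -0.50 ± 0.48, -0.25 ± 0.48 and -0.30 ± 0.48 at 2, 4 and 6 h, with an average of -0.35 ± 0.27 (0.785-fold). Compared within array sets all 5 differences were below 0, from -0.60 to -0.20. Leaving out 1 array of 2 h moved the 2 h difference to -1.25 (first solvent array), 0.25 (second solvent array), 0.15 (first TCDD array) or -1.15 (second TCDD array). Each of these fits leaves 1 treatment with only 1 array set at 2 h, so the values mix treatment with array set. Within sets the 2 h difference was -0.40 in the larger and -0.60 in the smaller. Between arrays of the same time and number it was below 0 in all 6 pairs, from -0.6 to -0.1. The SE of its average was 0.09 when these pairs were fitted as a block, a fit with 3 residual degrees of freedom. The time differences of -0.73 ± 0.34 (4 h minus 2 h, limma adjusted p = 0.99) and -0.65 ± 0.34 (6 h minus 2 h, adjusted p = 0.477) did not pass. Tnfaip6 lies at chr2:52038113-52056681.

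The hyaluronan synthase genes Has1 and Has2 differed little between treatments, and Has2 was the member that differed most between array sets. Has3, the remaining synthase, had a mean of 3.41, below the filter. Has1 (chr17:17833691-17855589) read 5.5 and 5.4, 5.6 and 5.3, and 5.0 and 5.3 on TCDD arrays of 2, 4 and 6 h, against 5.4 and 5.4, 5.6 and 5.4, and 5.4 and 5.5 on solvent arrays. All 12 values lay within 0.60, and TCDD was lower without overlap only at 6 h, by -0.30 ± 0.18; the average was -0.10 ± 0.10. Has2 (chr15:56665627-56694546), in probe set 1418678_at, read 5.1 and 5.9, 5.2 and 4.5, and 4.5 and 6.2 on TCDD arrays, and 4.4 and 5.6, 4.7 and 4.4, and 4.4 and 6.0 on solvent arrays. The groups overlapped at every time, and the average TCDD difference of 0.32 ± 0.38 was within its error. Between arrays of the same time and replicate number it was above 0 in all 6 pairs, from 0.1 to 0.7, and its SE was 0.10 when these pairs were fitted as a block. The second probe set, 1449169_at, gave 0.18 ± 0.33 and was above 0 in 4 of 6 pairs (-0.1 to 0.7), with an SE of 0.11 in the paired fit.

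For Has2 the high and low arrays followed the array sets in 1418678_at, and less fully in 1449169_at. There the first TCDD array of 4 h, in the smaller set, read 4.9, within the range of the larger set. With 1418678_at the smaller set read 5.2 to 6.2 and the larger set 4.4 to 5.1, with no overlap and a difference of 1.21; with 1449169_at the smaller set read 4.9 to 6.3 and the larger 4.7 to 5.6, a difference of 0.99. Fitted within groups these differences were 1.20 and 0.94, at the 99.7th and 99.3rd percentile of size among all 22626 probe sets. The sets were drawn from the same values, so this is a description with no test. With the set as a block, the TCDD difference of Has2 was 0.12 ± 0.15 and 0.03 ± 0.18. Antxr2 and Ptx3 differed by 0.12 and 0.28 between sets within groups, and their TCDD differences with the block were 1.18 ± 0.13 and 1.10 ± 0.14.

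**Figure D3:**
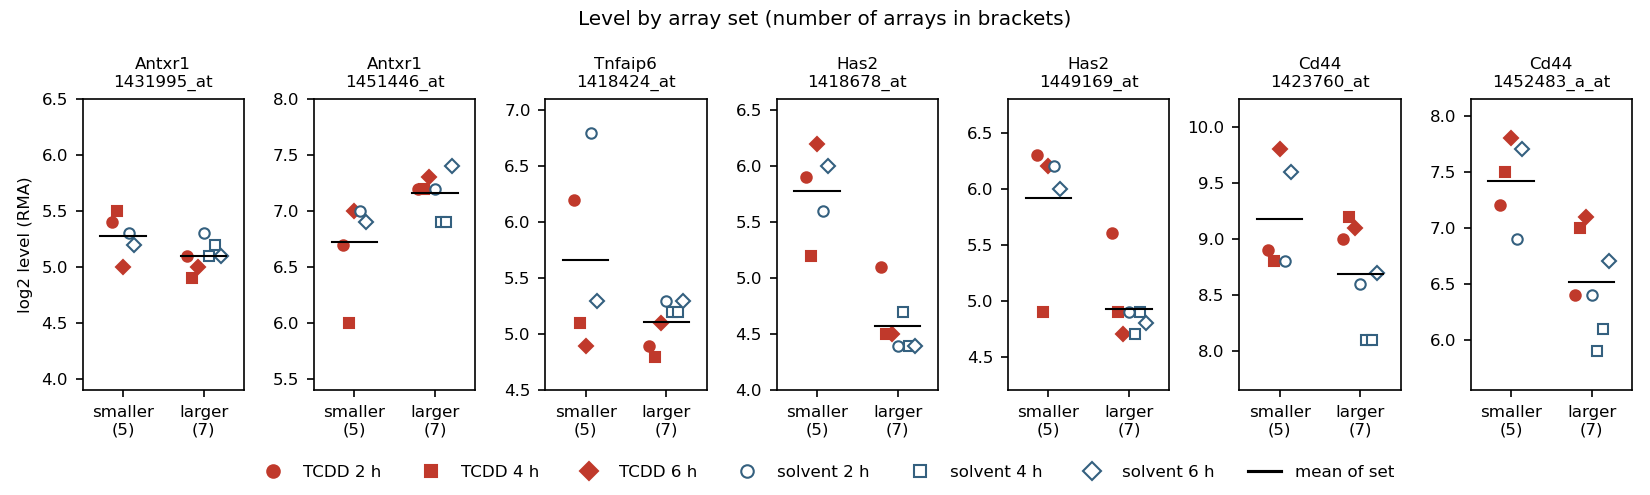
Log2 level (y axis) of 7 member probe sets by array set (x axis: 5 arrays in the smaller, 7 in the larger), TCDD filled red and solvent open blue, with circles, squares and diamonds for 2, 4 and 6 h and a line at the set mean. Has2 1418678_at runs from 5.2 to 6.2 on the smaller set and from 4.4 to 5.1 on the larger.

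Cd44 (chr2:102811141-102901669), the hyaluronan receptor, had its widest gap between TCDD and solvent at 4 h. Probe set 1423760_at read 9.0 and 8.9, 8.8 and 9.2, and 9.1 and 9.8 on TCDD arrays of 2, 4 and 6 h, against 8.6 and 8.8, 8.1 and 8.1, and 8.7 and 9.6 on solvent arrays. The 4 h solvent arrays were the lowest of all, and TCDD and solvent did not overlap at 2 and 4 h. The TCDD difference was 0.25 ± 0.31, 0.90 ± 0.31 and 0.30 ± 0.31 at 2, 4 and 6 h, with an average of 0.48 ± 0.18, 1.4-fold. Between arrays of the same time and number it was above 0 in all 6 pairs, from 0.1 to 1.1. In the paired fit the SE of its average was 0.10.

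The second Cd44 probe set, 1452483_a_at, had the same shape. It read 6.4 and 7.2, 7.5 and 7.0, and 7.1 and 7.8 with TCDD, against 6.4 and 6.9, 5.9 and 6.1, and 6.7 and 7.7 with solvent, and overlapped at 2 and 6 h. Its TCDD difference was 0.15 ± 0.39, 1.25 ± 0.39 and 0.25 ± 0.39, with an average of 0.55 ± 0.23. Pairs of the same time and number were above 0 in 5 of 6 and below 0 in 0, from 0.0 to 1.6, with an SE of 0.12 in the paired fit. With the array set as a block the average was 0.44 ± 0.16 for 1423760_at and 0.43 ± 0.10 for 1452483_a_at. At 4 h the first TCDD array belongs to the smaller set and both solvent arrays to the larger, and this probe set was 0.70 higher on the smaller set within groups. Compared within the larger set alone, the 4 h difference was 1.10 for 1423760_at and 1.00 for 1452483_a_at; that comparison uses the TCDD array whose label conflicts, and without it the 4 h differences were 0.70 and 1.50. Neither probe set passed the test of a TCDD difference that changes with time (limma F-test, adjusted p = 1 for both). Over both treatments 6 h exceeded 2 h by 0.47 ± 0.22 and 0.60 ± 0.28, which did not pass (limma adjusted p = 0.456 and 0.459). Of all 15844 tested probe sets, 0 passed on 6 h minus 2 h and 1753 (11.1%) had an unadjusted p under 0.05. On 4 h minus 2 h these were 0 and 450 (2.84%). The 2.84% is below the share of 0.05 that evenly spread p-values would give.

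Other genes of these pathways gave no call. Over 4 lists of 56 genes, 50 were on the array and 35 above the filter. Of these, 0 of 35 passed limma's test on the average TCDD difference, in either direction, against 0.0947% of all tested probe sets. Of the 35, 8 lay above 0. The share above 0 among all tested probe sets was not counted, so nothing is read from the 8. The median of all tested probe sets was 0.00. Among 15 other hyaluronan matrix genes the median was -0.07, with 4 above 0, and the 2 furthest from 0 lay in opposite directions. Vcan, a large proteoglycan that binds hyaluronan, read 5.3 and 4.2, 4.3 and 5.5, and 6.7 and 8.1 with TCDD at 2, 4 and 6 h in probe set 1427256_at, and 4.7 and 5.0, 4.3 and 4.8, and 4.7 and 5.6 with solvent. It stood apart at 6 h only, by 2.25 ± 0.56 (4.76-fold), and its average of 0.83 ± 0.32 did not pass (limma adjusted p = 1), nor did its change over time (limma's F-test, adjusted p = 1). The other Vcan probe sets gave 1.50 ± 0.38 (1421694_a_at) and 0.40 ± 0.25 (1427257_at) at 6 h. Their averages over the times were 0.70 ± 0.22 and 0.15 ± 0.14, and neither passed the test.

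Adamts1, a metalloproteinase that cuts versican, read 6.0 and 6.6, 5.2 and 6.8, and 6.8 and 6.1 with TCDD, and 6.9 and 8.1, 7.2 and 7.2, and 7.8 and 6.5 with solvent. TCDD arrays were lower without overlap at 2 and 4 h and overlapped at 6 h; the average was -1.03 ± 0.34 (limma adjusted p = 1). Of the 11 matrix ligands, collagen and laminin chains, coreceptors and matrix proteases listed beside the anthrax receptors, 1 lay above 0, with a median of -0.17. Mmp14, a membrane-bound matrix protease, had averages of -0.42 ± 0.21 (1448383_at) and -0.50 ± 0.24 (1416572_at). Col6a3, a chain of collagen VI, had one of -0.25 ± 0.14. With the array set as a block these were -0.32 ± 0.13 and -0.41 ± 0.17 for Mmp14, and -0.19 ± 0.09 for Col6a3. In the list of pentraxins and Ptx3 ligands 10 of 12 genes were on the array and only Selp (-0.10 ± 0.18) and Nptx1 (0.00 ± 0.10) were above the filter. The 7 Cd44 linkers and sheddases had a median of -0.07, with 3 above 0. Rdx, which ties Cd44 to actin, gave 0.13 ± 0.15 (1448236_at) and 0.25 ± 0.19 (1416179_a_at). Ezr, of the same family, gave -0.12 ± 0.16 (1450850_at) and -0.05 ± 0.10 (1456725_x_at).

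**Figure D4:**
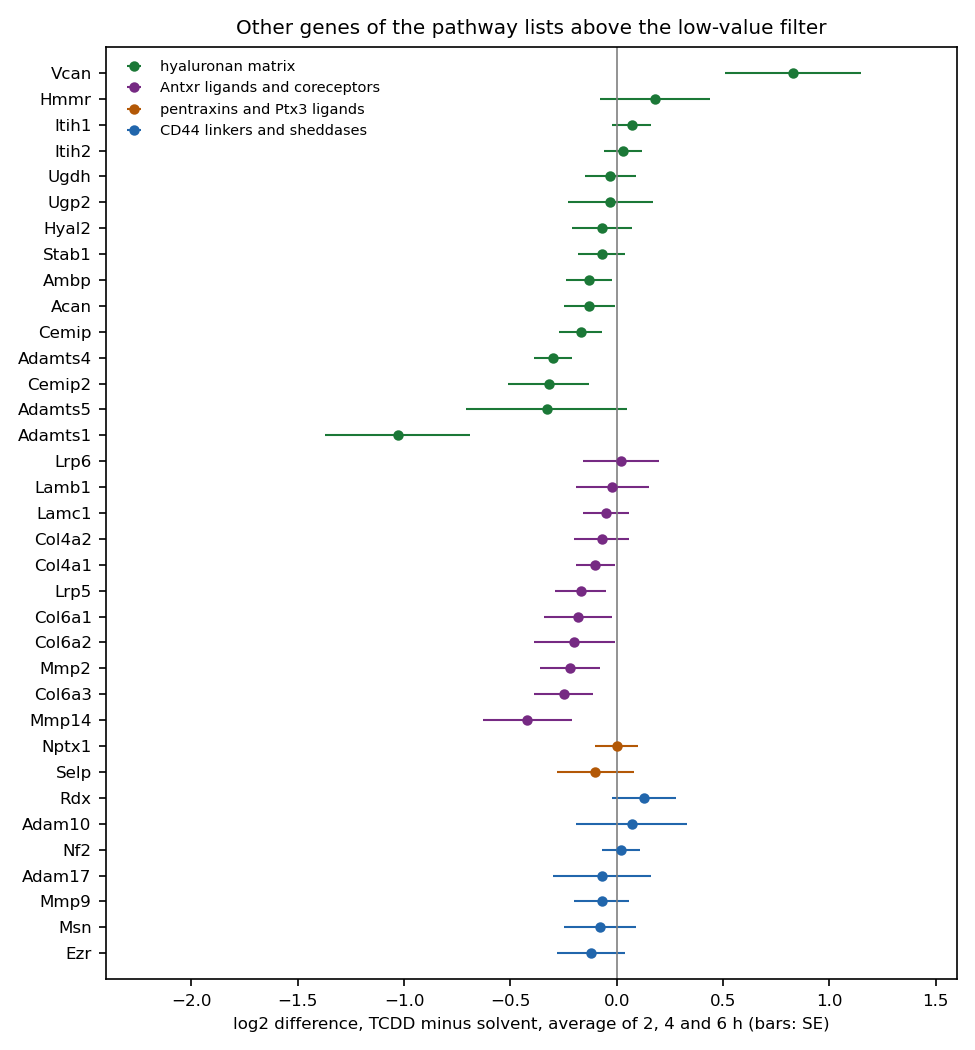
Average log2 difference of TCDD minus solvent (x axis, bars are SE) for the 35 other pathway genes above the filter (y axis), coloured by list. Vcan at 0.83 and Adamts1 at -1.03 are furthest from 0, and 8 of 35 genes lie above 0.

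The genes whose levels most resembled Antxr2 over the 12 arrays were named by Pearson correlation among 14565 other probe sets with 1 symbol above the filter. They were Gsdme (r = 0.91, Spearman rho = 0.94), Cyp1b1 (0.90, 0.91), M6pr (0.90, 0.90), Nqo1 (0.90, 0.94) and Cyp1a1 (0.89, 0.88). For Ptx3 they were Fez2 (r = 0.94, rho = 0.84), Cyp1a1 (0.94, 0.87), Cox5a (0.92, 0.94), Wfs1 (0.91, 0.82) and Gpc1 (0.91, 0.81). These correlations describe the arrays, which share 2 treatments and 3 times, and carry no test.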

How the data were processed

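The 12 arrays were mouse Affymetrix arrays in 6 groups of 2. The authors' deposited log2 values come from RMA, as the submitters' processing notes name it; RMA corrects background, equalises the arrays and summarises probes. Its version and further filters are not given in the sources used here. The deposited log2 values ran from 2.2 to 14.1, and every array had a median of 5.1, so a shift of all genes together cannot be seen. No scanner files were used here. Depth does not apply to arrays; 2 a group limits the precision, and an exact permutation test of 2 arrays against 2 could not go below p = 0.333.

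Of 22690 probe sets, 64 controls were left out. The platform annotation, which can be old, gave 20380 probe sets 1 symbol, 691 several and 1555 none; 20351 were matched to RefSeq by gene identifier, which changed 0 symbols. All 12 value columns were used.

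The members and lists were chosen with earlier results of these data known. limma 3.58.1 in R 4.3.3 fitted a mean for each of the 6 groups (6 residual degrees of freedom, prior degrees of freedom 3.81) on 15844 probe sets, with two-sided p-values adjusted by Benjamini-Hochberg over all of them and a threshold of 0.05. The fit was tested on simulated data with independent noise for each probe set and no array sets or pairing. That test therefore does not cover the array sets seen here. Named genes were all member probe sets, for each list the 2 genes furthest from 0 on the average TCDD difference, and the 5 genes most correlated with Antxr2 and with Ptx3. Where a gene had several probe sets, a list used the one with the highest mean level.

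Array sets came from complete linkage on 1 minus Pearson's r, cut into 4 clusters, the largest against the rest. Replicate numbers were checked for pairing. The differences between the arrays of a group correlated between TCDD and solvent by 0.37, 0.16 and 0.71 at 2, 4 and 6 h. All were over the 0.1 set as the rule. At 2 and 6 h the replicate numbers coincide with the array sets, so pairing cannot be told apart from the sets. At 4 h they do not coincide, as the first TCDD array was in the smaller set and both solvent arrays in the larger. The main fit did not pair the arrays. Alternatives were the replicate number or the array set as a block, other filters, unmoderated variances, each time alone, and each array or the 4 h arrays left out; leaving out the 6 h arrays was added after seeing the data.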

Additional observations from a re-analysis of the deposited data

How the results depend on the processing

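With 2 arrays a group, 40 alternative counts of calls moved beyond a set ratio and 96 did not, among them counts over time that stayed at 0. The average differences of Antxr2 and Ptx3 were above 0 in every alternative run. As these differences chose the 2 genes, that sign adds no support. The average TCDD count of 15 became 46 with the array set as a block, 6 without moderated variances, 9 without the 4 h arrays, 4 without the 6 h arrays (chosen after seeing the data) and 10 to 24 when 1 array was left out (24 without either TCDD array of 4 h). At 2 h the count of 3 became 1 with a replicate block within each time, 10 with the array set as a block, 0 without moderation, 0 on the 4 arrays of 2 h alone and 0 to 9 without 1 array. At 4 h the count of 2 became 1 with either replicate block, 7 with the array set, 0 without moderation, 0 on its 4 arrays alone and 1 to 59 without 1 array; the 59 (6 higher, 53 lower) came without the second TCDD array of 4 h, the one with the conflicting label. At 6 h the count of 1 became 8 with the array set, 0 without moderation, 0 on its 4 arrays alone and 0 to 7 without 1 array. The 6 h minus 2 h count of 0 became 1 with the array set as a block; the other counts over time stayed at 0 (0 to 0 without 1 array). The cause of these moves was not tested. The unmoderated fit gave no p to 2 of the 15844 probe sets, which have no residual spread. The call that chose Antxr2 was lost without moderation, without the 4 h or the 6 h arrays, and without the first solvent array of 2 h or either of 4 h. Ptx3 lost it in these cases too, with the replicate block over all times, and without any 1 of the other arrays except the first TCDD array of 2 h and the second of 4 h. The replicate block changed no other call of a member; within each time it is nested in time and gives no test between times.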
